A study of Mus musculus with 8 samples.

Results

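The transcription factors that specify dendritic cells (DCs) were examined in DC-restricted progenitors (CDPs) of bone marrow (BM). The 10 factors Zbtb46, Batf3, Id2, Irf4, Irf8, Nfil3, Klf4, Bcl6, Zeb2 and Relb were taken by name, and all 10 were found by Ensembl identifier among the 16119 genes of the count table. CDPs were sorted as lineage-negative cells with intermediate c-Kit and low Sca1 that were positive for CD115 and Flt3. They came from C57BL/6 mice (C57BL/6J in the methods) made obese on a high fat diet (HFD, 60 kcal% fat) or fed control chow (CF, 10 kcal% fat). The labels give 16 weeks of HFD and call the groups DIO and DIO-Control, with CF mice matched for age and diet, and the mice were male according to the methods. Each diet had 4 replicates of about 50000 cells. Gene positions are those of GENCODE on GRCm38. Whether a replicate came from 1 mouse is not given in the sources used here, so p values measure the spread between these libraries. RNA was amplified as whole transcriptome, and raw counts per library summed to between 28203651 and 48409689, of which 11819701 to 15164732 fell on protein-coding genes. This share was 38.9% to 41.9% in the 4 HFD libraries and 28.3%, 34.1%, 33.9% and 42.0% in CF replicates 1 to 4. Values are given as CPM, counts scaled to a common library size with the TMM factors of edgeR, and differences as log2 fold change (log2FC) of HFD against CF with its standard error (SE).

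CDPs give rise to conventional DCs (cDCs) and plasmacytoid DCs (pDCs). Irf8, Batf3, Id2 and Nfil3 are known for their roles in the cDC1 lineage, whose cells cross-present antigen. Irf4, Klf4 and Relb are known for roles in cDC2, the CD11b+ DCs that prime helper T cells, while Zeb2 favours pDCs and cDC2 and opposes Id2. Zbtb46 marks committed cDCs and their precursors, and Bcl6 is a transcriptional repressor that cDCs, follicular T cells and germinal centre B cells use.

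Of the markers of the sorting gate, 3 were looked at and were present in every library. Flt3 had 88.8 to 378 CPM, Csf1r, which encodes CD115, 79.4 to 133 CPM, and Kit 34.2 to 53.6 CPM. Of 11 markers of T and NK cells 8 were in the table, and Trac, Ncr1 and Gzma were not analysed here. The 8 genes included Cd3e and Cd3g, whose counts were too low to be tested. Of the other 6, Lck had 5.07 to 19.9 CPM and Nkg7 7.55 to 24.6 CPM over the libraries. Cd4, Cd8a, Cd3d and Klrb1c reached at most 2.52, 2.43, 1.67 and 1.44 CPM. Mean Cd4 was 1.78 CPM in HFD and 0.490 CPM in CF (unadjusted p = 0.0221 and adjusted p = 0.409 by edgeR). All 10 B cell markers were measured, and Ighm, the heavy chain of IgM, had 261 to 728 CPM although the gate left out lineage-positive cells. HFD replicate 1 stood apart from the other libraries in transcripts of other blood cells. The 15 neutrophil markers, all of which were measured and had at least 1 CPM in both diets, summed to 20820 CPM in HFD replicate 1 and to 3666, 1309 and 984 CPM in HFD replicates 2, 3 and 4. In CF they summed to 1996, 6723, 6260 and 6052 CPM in replicates 1 to 4. The 10 erythroid markers, too, summed to 479.9 CPM in HFD replicate 1 and to between 80.8 and 129 CPM in the other 7 libraries, and the 7 macrophage markers tested to 84.6 CPM there and 20.9 to 61.2 CPM elsewhere.

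The promoters of 9 of the 10 factors were found in RefSeq on GRCm38.p6, and Relb had no entry. The 250 bases before the start are shown for Irf8 and Bcl6, the pair of factors with the lowest p of correlation, which did not pass adjustment, and whose promoters both hold TTCNNNGAA, the palindromic letters known as a STAT site, marked in capitals. They lie at chr8:120736108-120736357 on the plus strand and chr16:23988853-23989102 on the minus strand, and no annotated exon overlaps either.
Irf8: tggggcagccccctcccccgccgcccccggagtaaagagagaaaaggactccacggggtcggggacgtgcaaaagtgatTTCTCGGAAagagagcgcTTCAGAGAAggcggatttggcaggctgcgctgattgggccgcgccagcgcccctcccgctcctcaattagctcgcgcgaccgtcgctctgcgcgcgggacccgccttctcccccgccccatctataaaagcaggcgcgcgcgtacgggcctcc
Bcl6: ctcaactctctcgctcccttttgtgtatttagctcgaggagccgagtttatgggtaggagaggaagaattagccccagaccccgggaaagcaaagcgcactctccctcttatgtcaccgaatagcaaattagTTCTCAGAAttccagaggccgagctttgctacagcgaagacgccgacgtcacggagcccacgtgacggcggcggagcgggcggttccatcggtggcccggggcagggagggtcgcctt
TTCNNNGAA began 171 and 153 bases before the start of Irf8, 118 bases before that of Bcl6 and 239 bases before that of Batf3. It was found in 3 of the 9 promoters, against 7.02% of all 32851 promoters of this length. The AP-1 letters TGANTCA were in Zbtb46 alone (6.75% of all promoters), as were the E-box letters CACCTG (17.2%). The starts listed for Zbtb46, Batf3 and Id2 lie inside the genes as GENCODE draws them, as do the last bases of the Irf4 and Nfil3 windows. By exons, 163 of the 250 bases of Batf3 and 161 of those of Id2 are exonic in some transcript, against 34 in Nfil3 and 7 in Irf4. No match was found in the 9 windows, read on both strands, for the interferon-stimulated response element (2.98% of all promoters), the ETS-IRF composite element (2.30%), the NF-kB site (0.356%) or the bZIP letters TTATGTAA (0.819%). A match is a description of letters and was not tested as a binding site. GC content was 67.2% in the Irf8 window and 58.4% in that of Bcl6, with a median of 52.4% over all promoters.

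To set the factors beside each other, CPM was divided by the length of all annotated exons in kb. Irf8 had the highest level per length, with 63.6 ± 18.6 CPM per kb (SD over 8 libraries), and it stood above Klf4 in 8 of 8 libraries. Klf4, with 14.1 ± 3.52, Id2, with 12.8 ± 2.89, and Zeb2, with 10.9 ± 1.56 CPM per kb, had overlapping ranges. Zeb2 was above Nfil3 (6.95 ± 1.01 CPM per kb) in 8 of 8 libraries. Nfil3, Bcl6 (3.95 ± 1.28) and Irf4 (2.76 ± 0.888) came next, and each overlapped its neighbour in range. Zbtb46 had 1.57 ± 0.277 CPM per kb, below Irf4 and above Batf3 in 8 of 8 libraries. Batf3, with 0.675 ± 0.356, and Relb, with 0.652 ± 0.178 CPM per kb, were the lowest and overlapped. Zeb2 is the longest of these transcripts, with 19942 bases of annotated exon, and its level per length depends on how much of that is used. Zeb2 shares 653 exon bases with Zeb2os on the other strand, which received 63 to 118 counts per library against 5828 to 9257 for Zeb2. No other gene of the table overlapped a factor.

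Between HFD and CF, none of the 10 factors passed the test. By edgeR's quasi-likelihood test over 15837 genes, 0 of 10 had an adjusted p below 0.05, where 0.423% of all genes were called lower and 0.0% higher. An unadjusted p below 0.05, called nominal from here on, was found for 1 of 10 on the lower side (Id2), where 5.34% of all genes and 1.67% of protein-coding genes were, and for 1 of 10 on the higher side (Nfil3), where 3.22% and 3.71% were. DESeq2 also called 0 of 10, where it called 3.18% of all genes lower and 0.404% higher, and so did limma voom, where the shares were 0.442% and 0.0%. Nominally, 2 factors were lower and 1 higher in each, beside 5.95% and 3.36% of all genes in DESeq2 and 5.74% and 3.2% in limma voom. In size, 7 of 10 factors had a log2FC below 0 and 3 above, with a median of -0.13 beside 0.055 over all genes tested, of which 40.3% were below 0. Scaled by library size alone, which moved the median of all genes to 0.25, Klf4, Zeb2 and Bcl6 turned above 0.

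**Figure D1:**
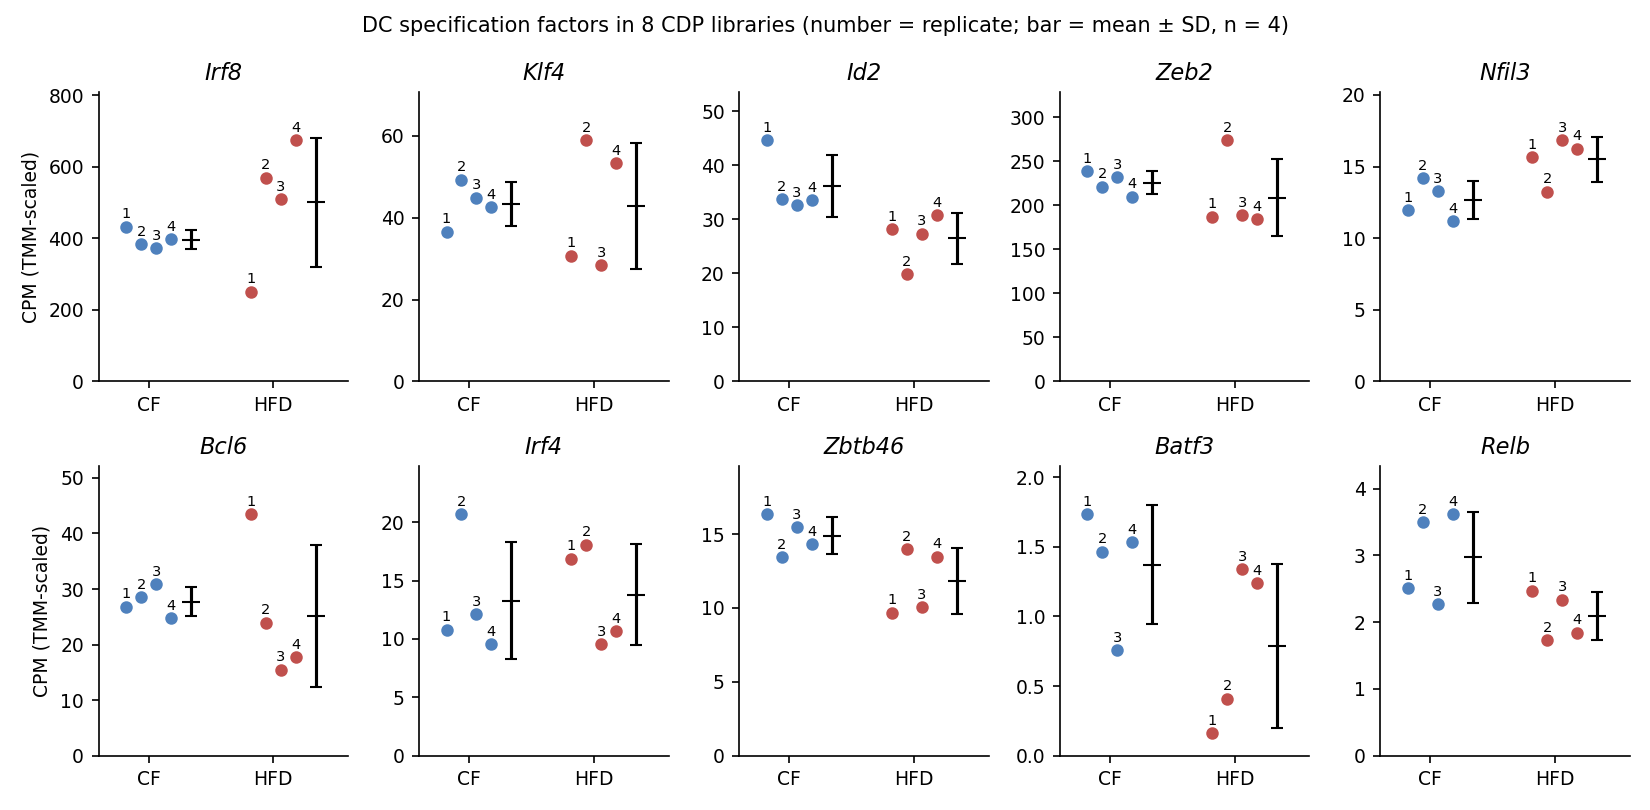
CPM (linear axis from 0) of each factor in the 4 CF and 4 HFD libraries, numbered by replicate, with the mean and SD of each diet (n = 4). The diets are apart for Id2, with at most 30.7 CPM in HFD and at least 32.6 in CF, and overlap for the other 9 factors.

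Id2 (ENSMUSG00000020644, chr12:25093799-25097140, minus strand), an inhibitor of E proteins that cDC1 require, had its lower values in HFD, and the difference did not pass the adjusted test. It had 28.2, 19.8, 27.3 and 30.7 CPM in HFD replicates 1 to 4 and 44.6, 33.7, 32.6 and 33.5 CPM in CF replicates 1 to 4. Every HFD library lay below every CF library, which held for 1 of 10 factors and for 3.58% of all genes in this direction, and for 0.951% of protein-coding genes. In the other direction, 0 of 10 factors and 2.58% of all genes had every HFD library above every CF library. Mean Id2 was 26.5 ± 4.71 CPM under HFD and 36.1 ± 5.68 CPM under CF (SD, n = 4 each). This gave a log2FC of -0.45 with an SE of 0.16, and edgeR returned an unadjusted p of 0.0234 and an adjusted p of 0.420. Without CF replicate 1, the highest library, the log2FC was -0.33 (unadjusted p = 0.0719 and adjusted p = 0.799 by edgeR). With HFD replicate 1 left out as well, it was -0.36 (unadjusted p = 0.0566 and adjusted p = 0.349 by edgeR). The exact two-sided permutation test of log2 CPM over 70 draws gave p = 0.0286, the smallest that 4 against 4 allows. The separation depends on the scaling. By library size alone Id2 had 28.3, 22.3, 30.4 and 32.5 CPM in HFD and 35.7, 29.7, 29.4 and 39.6 in CF, so the diets overlapped, and the log2FC was -0.24 (adjusted p = 0.496 by edgeR). CF replicates 1, 2 and 3 had both the lowest protein-coding shares and the lowest TMM factors of the 8 libraries, and the part of this composition in the difference was not tested. In bulk RNA, fewer cells with a transcript and less of it per cell cannot be told apart.

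Nfil3 (ENSMUSG00000056749, chr13:52967209-52981073, minus strand), a bZIP repressor that acts early in the path to cDC1, was the factor with the second lowest p. HFD replicates 1 to 4 had 15.7, 13.2, 16.8 and 16.3 CPM, and CF replicates 1 to 4 had 11.96, 14.2, 13.3 and 11.18 CPM. In HFD 3 of 4 libraries were above every CF library, and HFD replicate 2 lay within the CF range. Its log2FC was 0.29 (SE 0.13, unadjusted p = 0.0442 and adjusted p = 0.556 by edgeR), and it was nominal in 8 of 17 alternative settings. The log2FC ranged from 0.23 without HFD replicate 4 to 0.50 by library size alone.

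Irf8 (ENSMUSG00000041515, chr8:120736358-120756694, plus strand), which CDPs need to form cDC1, was the most abundant factor, with 7813 to 27764 counts per library. Its CPM in HFD replicates 1 to 4 was 251, 569, 509 and 674, and in CF replicates 1 to 4 it was 432, 383, 372 and 398. HFD replicates 2, 3 and 4 were above every CF library, while HFD replicate 1, the library with the most neutrophil and erythroid transcripts, was below every one. Over all libraries the log2FC was 0.34 (SE 0.26, edgeR adjusted p = 0.830). Without HFD replicate 1 it was 0.56 (SE 0.14), with an unadjusted p of 0.00316 and an adjusted p of 0.105 in edgeR, and without HFD replicate 4 it was 0.12. The part of the neutrophil and erythroid transcripts in the low value of HFD replicate 1 was not tested.

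Batf3 (ENSMUSG00000026630, chr1:191097847-191108945, plus strand), the AP-1 partner of Irf8 in cDC1, had low counts. It received 5, 13, 51 and 51 counts in HFD replicates 1 to 4 and 67, 46, 24 and 59 counts in CF replicates 1 to 4. In CPM these were 0.161, 0.409, 1.34 and 1.24 in HFD and 1.73, 1.46, 0.756 and 1.53 in CF. HFD replicates 1 and 2 lay below every CF library. The exact Poisson 95% interval was 1.62 to 11.7 for the 5 counts of HFD replicate 1 and 38.0 to 67.1 for the 51 counts of HFD replicates 3 and 4, and these intervals cover counting error only. The log2FC was -0.79 with an SE of 0.59 (adjusted p = 0.820 from edgeR), and neither direction was detectable over the spread between libraries. Without HFD replicate 1 it was -0.45 (adjusted p = 0.679 from edgeR).

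Zbtb46 (ENSMUSG00000027583, chr2:181387762-181459426, minus strand), the zinc finger factor of committed cDCs, lay under the mean of CF in each of the 4 HFD libraries. It had 9.69, 13.97, 10.1 and 13.5 CPM in HFD replicates 1 to 4 and 16.3, 13.5, 15.5 and 14.3 CPM in CF replicates 1 to 4. HFD replicates 1 and 3 were below all CF libraries, and HFD replicates 2 and 4 were at the lower end of the CF range. The log2FC was -0.34 (SE 0.15, unadjusted p = 0.0561 and adjusted p = 0.606 by edgeR), and by library size alone it was -0.13 (adjusted p = 0.733 by edgeR).

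Relb (ENSMUSG00000002983, chr7:19606217-19629438, minus strand), the NF-kB subunit of the non-canonical pathway, also lay under the mean of CF in each of the 4 HFD libraries. It had 2.47, 1.73, 2.33 and 1.84 CPM in HFD replicates 1 to 4 and 2.51, 3.50, 2.27 and 3.61 CPM in CF replicates 1 to 4, from 55 to 139 counts. HFD replicates 2 and 4 lay below the CF range, and HFD replicates 1 and 3 within it. The log2FC was -0.50 (SE 0.23, unadjusted p = 0.0584 and adjusted p = 0.615 by edgeR).

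Among the factors of cDC2, Irf4 and Klf4 showed no common direction. Irf4 (ENSMUSG00000021356, chr13:30749226-30766976, plus strand) had 16.9, 18.1, 9.55 and 10.7 CPM in HFD replicates 1 to 4 and 10.8, 20.7, 12.1 and 9.54 CPM in CF replicates 1 to 4. Both diets held high and low libraries, and the log2FC of 0.054 was smaller than its SE of 0.30 (adjusted p = 0.984 from edgeR). Klf4 (ENSMUSG00000003032, chr4:55527143-55532466, minus strand), a zinc finger factor also used by monocytes, had 30.7, 58.9, 28.4 and 53.3 CPM in HFD replicates 1 to 4 and 36.5, 49.3, 44.9 and 42.6 CPM in CF replicates 1 to 4. In HFD 2 libraries were above all CF libraries and 2 below, with a log2FC of -0.016 (SE 0.24, edgeR adjusted p = 0.997).

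Zeb2 (ENSMUSG00000026872, chr2:44983632-45117395, minus strand), a zinc finger repressor, had 187, 274, 189 and 185 CPM in HFD replicates 1 to 4 and 239, 221, 232 and 210 CPM in CF replicates 1 to 4. In HFD 3 libraries lay below every CF library, and HFD replicate 2 lay above every one. The log2FC was -0.11 (SE 0.15, edgeR adjusted p = 0.922), and without HFD replicate 2 it was -0.27 (unadjusted p = 0.0361 and adjusted p = 0.561 by edgeR). It was -0.064 without HFD replicate 1 and -0.069 without HFD replicate 3. Bcl6 (ENSMUSG00000022508, chr16:23965052-23988852, minus strand) was arranged in a similar way around another library. It had 43.4, 23.9, 15.5 and 17.7 CPM in HFD replicates 1 to 4 and 26.8, 28.6, 30.9 and 24.7 CPM in CF replicates 1 to 4. HFD replicate 1 was above every CF library, and the other 3 HFD libraries were below every CF library. The log2FC of Bcl6 was -0.14 over all libraries (SE 0.30, edgeR adjusted p = 0.957). Without HFD replicate 1 it was -0.54 (SE 0.16), with an unadjusted p of 0.00795 and an adjusted p of 0.153 in edgeR. It turned to 0.031 without HFD replicate 3 and was -0.050 without HFD replicate 4.

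**Figure D2:**
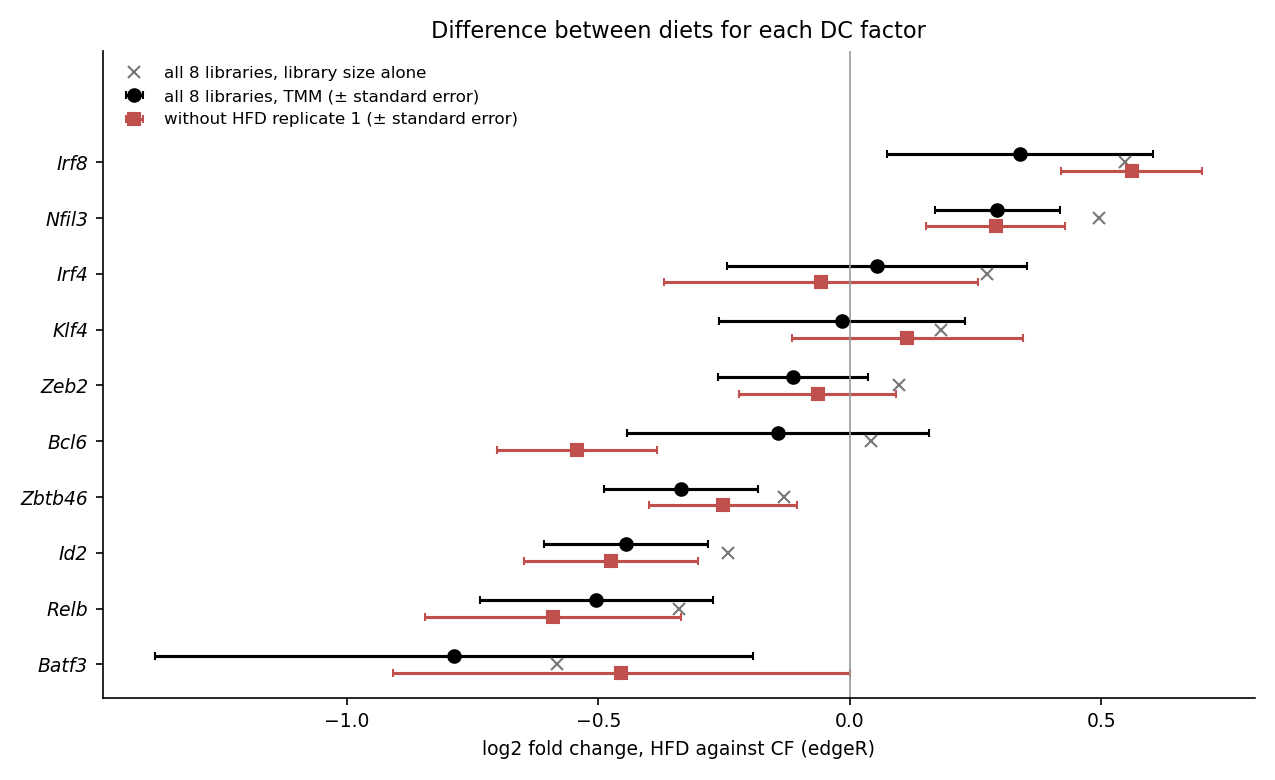
Log2 fold change of HFD against CF (horizontal axis) for each factor, with its standard error, for all 8 libraries scaled by TMM, without HFD replicate 1, and as a cross for all 8 libraries scaled by library size alone. Leaving out HFD replicate 1 moves Irf8 from 0.34 to 0.56 and Bcl6 from -0.14 to -0.54.

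The coefficient of variation between libraries was larger in HFD than in CF for 7 of the 10 factors, and for 8 of 10 without HFD replicate 1. The same held for 67.5% of all genes tested, and for 52.9% without HFD replicate 1, so that the first count is near the share of all genes. For Irf8 it was 35.9% in HFD, 14.3% there without replicate 1, and 6.67% in CF. For Zeb2 it was 20.9% in HFD and 5.71% in CF, and for Klf4 36.2% and 12.2%. Irf4, Nfil3 and Relb had the larger coefficient in CF, with 37.9%, 10.6% and 23.0% against 31.3%, 10.2% and 17.3% in HFD. With 4 libraries per diet these coefficients are given as a description.

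The balance between factors of different lineages was measured as the log2 ratio of their counts per kb within each library, which does not depend on the scaling between libraries. Of 7 ratios compared, 0 passed the exact two-sided permutation test after adjustment (adjusted p from 0.500 to 0.800, with unadjusted p from 0.143 to 0.800). With 4 libraries per diet, 5 of the 7 ratios would have to be fully apart for any to pass, so this outcome says little about the ratios. Nfil3 to Zeb2 had the lowest p, with -0.44 ± 0.43 (SD, n = 4) in HFD and -0.86 ± 0.15 (SD, n = 4) in CF on the log2 scale (exact permutation p = 0.143). In HFD the ratio was 0.824, 0.476, 0.877 and 0.867 in replicates 1 to 4, and in CF it was 0.492, 0.631, 0.563 and 0.524. HFD replicate 2 was the lowest of all 8 libraries, and the other 3 HFD libraries were the highest. Id2 to Zeb2 was 1.23, 0.591, 1.18 and 1.36 in HFD and 1.53, 1.25, 1.15 and 1.31 in CF, so that here too HFD replicate 2 was alone at the low end (exact permutation p = 0.371). Id2 to Tcf4, which encodes the E protein that pDCs depend on, was 3.13, 1.43, 2.70 and 2.92 in HFD and 5.07, 3.00, 2.67 and 3.32 in CF (exact permutation p = 0.229). Irf8 exceeded Irf4 per length by 10.3 to 44.0 times in HFD and by 12.9 to 29.0 times in CF (exact permutation p = 0.686), and Irf8 exceeded Klf4 by 3.53 to 7.74 times in HFD and 3.36 to 5.11 times in CF (exact permutation p = 0.257). Batf3 to Irf4 ranged from 0.0292 to 0.430 in HFD and 0.191 to 0.494 in CF (exact permutation p = 0.286), and Bcl6 to Zeb2 from 0.244 to 0.691 and 0.333 to 0.395 (exact permutation p = 0.800). With each library left out in turn, the log2 difference of Irf8 to Irf4 ranged from -0.095 to 0.60 and that of Irf8 to Klf4 from 0.12 without HFD replicate 3 to 0.50 without HFD replicate 1. That of Batf3 to Irf4 ranged from -1.82 without HFD replicate 3 to -0.53 without HFD replicate 1. Bcl6 to Zeb2 went from -0.13 to -0.47 without HFD replicate 1 (exact permutation p = 0.0286, adjusted p = 0.200 over the 7 ratios). Without HFD replicate 2, Nfil3 to Zeb2 went from 0.43 to 0.64 (exact permutation p = 0.0286, adjusted p = 0.200), Id2 to Zeb2 from -0.32 to -0.048 and Id2 to Tcf4 from -0.48 to -0.23, and the last was -0.29 without CF replicate 1.

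The factors were also compared with each other over the 8 libraries. Of 45 pairs, 0 passed the adjustment for Pearson's r or Spearman's rho. The lowest p belonged to Irf8 and Bcl6, with r = -0.869 (exact permutation p = 0.00784, adjusted p = 0.353) and rho = -0.905 (exact permutation p = 0.00456, adjusted p = 0.205). Within HFD r was -0.865 and within CF -0.614, over 4 libraries each. Without HFD replicates 1 and 4, the libraries farthest from the median of Irf8, r was -0.654, and without HFD replicate 1 alone it was -0.744. By r, Zbtb46 and Nfil3 came next, with r = -0.747 (exact permutation p = 0.0328, adjusted p = 0.654) and rho = -0.762 (exact permutation p = 0.0368, adjusted p = 0.552). Their r was -0.583 without HFD replicates 1 and 3 and -0.485 once each diet was centred on its mean, which for Irf8 and Bcl6 gave -0.856. Batf3 and Id2 had a rho of 0.762 (exact permutation p = 0.0368, adjusted p = 0.552) and an r of 0.595 (exact permutation p = 0.149, adjusted p = 0.654), with r = 0.414 without HFD replicates 1 and 2 and 0.356 with each diet centred. Scaled by library size alone, the r of Irf8 and Bcl6 was -0.657 and that of Zbtb46 and Nfil3 -0.229. Bcl6 and the sum of the neutrophil markers were both highest in HFD replicate 1 and at their 2 lowest values in HFD replicates 3 and 4, and the erythroid sum was highest in HFD replicate 1 too. The part of these transcripts in the values of Bcl6 was not tested.

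**Figure D3:**
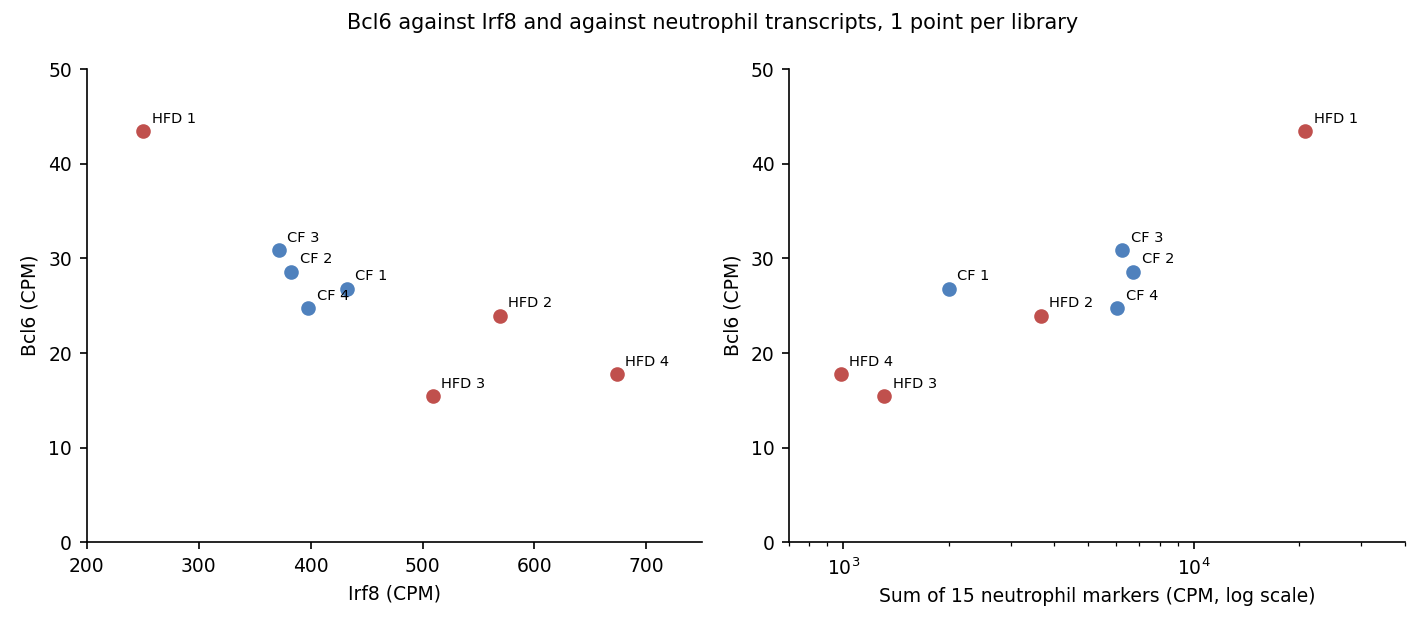
Bcl6 CPM (vertical axes) against Irf8 CPM (left, linear axis) and against the summed CPM of 15 neutrophil markers (right, log axis), with 1 point per library named by diet and replicate. HFD replicate 1 has the highest Bcl6 (43.4 CPM), the lowest Irf8 (251 CPM) and the highest neutrophil sum (20820 CPM).

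Among 6659 or 6660 other protein-coding genes with a mean of at least 10 CPM, the genes most like each factor over the 8 libraries were ranked by Pearson's r of log2 CPM, as a description of libraries that differ in depth and in neutrophil and erythroid content. Irf8 was most like Stn1 (r = 0.991), Slc30a4 (0.978) and Hmga1 (0.977), and 118 genes had an r over 0.9 with it. Bcl6 was most like Nfe2 (0.985), Dennd5a (0.984) and Mcl1 (0.980), with 258 genes over 0.9. Klf4 was most like Trappc1 (0.977), Themis2 (0.974) and Itpripl1 (0.963), with 22 genes over 0.9. Id2 had 3 genes over 0.9, namely Slc25a45 (0.917), Snrpb (0.913) and Sra1 (0.912). Zbtb46 was most like Ttc9c (0.932), Rbpj (0.919), which encodes the DNA-binding partner of Notch, and Hps5 (0.896). Nfil3 was most like Pex19 (0.967), Nudcd1 (0.961) and Tada3 (0.945), and Zeb2 most like Raph1 (0.943), Fkbp15 (0.932) and Hnrnpd (0.932). Irf4 was most like Gna13 (0.918), Mtmr12 (0.892) and Acer3 (0.892). For the low factors the closest were Glb1 (0.957), Mmd (0.956) and Baiap2 (0.955) for Batf3, and Bcl2l11 (0.915), Sbds (0.892) and Slfn8 (0.891) for Relb.

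Other regulators of the DC lineage were spread on both sides of 0. Of 40 listed, 39 were tested, and 0 were called by edgeR over all libraries. Nominally, 4 were lower and 2 higher, with a median log2FC of -0.021, which was 0.16 by library size alone. Without HFD replicate 1, 9 were nominally lower and 4 higher, where 9.76% and 4.79% of all genes were. Spib, an Ets factor of pDCs and B cells, had 42.9 ± 16.3 CPM in HFD and 16.2 ± 4.96 in CF (SD, n = 4), with a log2FC of 1.40 (adjusted p = 0.111 from edgeR). Ciita, the transactivator of MHC class II genes, had 13.6 ± 5.12 and 30.8 ± 5.19 CPM, with a log2FC of -1.18 (adjusted p = 0.123 from edgeR). The most abundant were Runx2, with 299 ± 116 CPM in HFD and 250 ± 21.7 in CF, and Notch2, with 249 ± 39.4 and 279 ± 23.7 CPM, neither of which passed the test (adjusted p of 0.888 and 0.844 from edgeR). Tcf4 differed by 0.040 on the log2 scale, less than its SE of 0.16. Of 16 partner proteins of the factors tested, 2 were nominally lower and 1 higher. The lists share genes, so that Spib and Tcf4 are regulators, partners and pDC genes, Jun a regulator and partner, Runx2 a regulator and pDC gene, and Ciita a regulator and pan-cDC gene, and each is counted in every list that holds it. Ncor1, a corepressor, was the most abundant partner, with 193 ± 32.5 CPM in HFD and 202 ± 14.4 in CF. Jun, which pairs with Batf3, had 44.4 ± 14.6 CPM in HFD and 84.1 ± 8.75 in CF (log2FC -0.92, edgeR adjusted p = 0.144).

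Genes of differentiated DCs were read from lists of pan-cDC, cDC1, cDC2 and pDC genes, chosen with earlier results of these data known. Of 18 pan-cDC genes, 10 were nominally lower and 1 (Havcr1) nominally higher by edgeR, with a median log2FC of -0.83 and 0 called. Over all genes, 5.34% were nominally lower and 3.22% higher. The 10 include Ciita, Cd74 and the MHC class II genes H2-Aa, H2-Ab1 and H2-Eb1, so they are not 10 separate observations. Besides Havcr1, Itgax and Kmo were above 0, with a log2FC of 0.54 and 0.38. Ccl22 had 0.298 ± 0.114 CPM in HFD and 1.79 ± 1.09 in CF (log2FC -2.56, edgeR adjusted p = 0.141). Cd74, the invariant chain, had 153 ± 45.2 and 331 ± 129 CPM (log2FC -1.12, edgeR adjusted p = 0.182). H2-Aa, a chain of MHC class II, had 94.2 ± 45.3 and 214 ± 54.0 CPM (log2FC -1.19, edgeR adjusted p = 0.271). Of 14 cDC1 genes, 3 were nominally lower and 0 higher, with a median of -0.51. That median was -0.34 without HFD replicate 1, -0.28 without CF replicate 1, -0.17 without both and -0.27 by library size alone. With each library left out, the count of nominally lower cDC1 genes ranged from 2 to 7. It was 7 without HFD replicate 3, where the median was -0.59. Naaa had 36.0 ± 8.07 CPM in HFD and 65.4 ± 10.6 in CF (log2FC -0.86, edgeR adjusted p = 0.0929), and Rab7b had -1.08 (adjusted p = 0.213 from edgeR). The most abundant cDC1 genes differed in sign, with Wdfy4 at -0.39 and Cd24a, which other progenitors also express, at 0.39 (adjusted p of 0.686 and 0.840 from edgeR). Of 12 cDC2 genes tested, 0 were nominally lower and 1 higher, namely Cd7 (log2FC 1.14, edgeR adjusted p = 0.502). The list had 0 nominal genes once any of HFD replicate 2, HFD replicate 4 and CF replicates 1, 3 and 4 was left out. The median of the list, 0.067, had no stable sign and ranged from -0.096 (limma voom) to 0.26 (library size alone). Clec12a was at 0.30, and the most abundant of this list, Csf1r and Itgam, were at -0.24 and -0.25 (adjusted p from 0.717 to 0.966 in edgeR). Csf1r encodes CD115 of the sorting gate and is also listed among progenitor and monocyte markers, so it is not particular to cDC2. Itgam ranged from 15.1 to 189 CPM over the libraries.

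Of 17 pDC genes tested, 8 were nominally higher and 0 lower, with a median log2FC of 0.78 and 0 called. Over all genes, 3.22% were nominally higher and 5.34% lower. The list was uneven, with Tcf4, Irf7, Tlr7, Tlr9 and Ly6c2 at a log2FC from 0.028 to 0.10 and Il3ra at -0.028. With each library left out, the nominal count ranged from 5, without HFD replicate 4 or CF replicate 3, to 11, without HFD replicate 1. Pacsin1 had 6.93 ± 3.24 CPM in HFD and 1.67 ± 0.704 in CF (log2FC 2.06, edgeR adjusted p = 0.0972). Without HFD replicate 1, edgeR called 6 of the 17 pDC genes higher, 3 of 39 other regulators lower and 1 higher, and 1 of 18 pan-cDC genes higher, while leaving out any other library gave 0 calls in these lists. In that setting 0 of 10 specification factors were called, where 1.05% of all genes were called lower and 0.214% higher. Nominally, 3 of the 10 were lower and 1 higher, beside 9.76% and 4.79% of all genes. The neutrophil list moves with the same library, since its median log2FC by edgeR was 0.37 over all libraries and -1.41 without HFD replicate 1. Its sign also depends on the method, since over all libraries the median was -0.63 in limma voom and -0.94 in edgeR with the replicate number as a block. Of 10 B cell markers, 6 were nominally higher and 0 lower, and they summed to 439 to 841 CPM in HFD and 323 to 496 CPM in CF. The part of B cell transcripts in the pDC genes, several of which B cells share, was not tested. DESeq2, over all libraries, called 4 pDC genes higher, 4 pan-cDC genes lower and 1 higher, 2 cDC1 genes lower, and 2 other regulators lower and 1 higher.

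**Figure D4:**
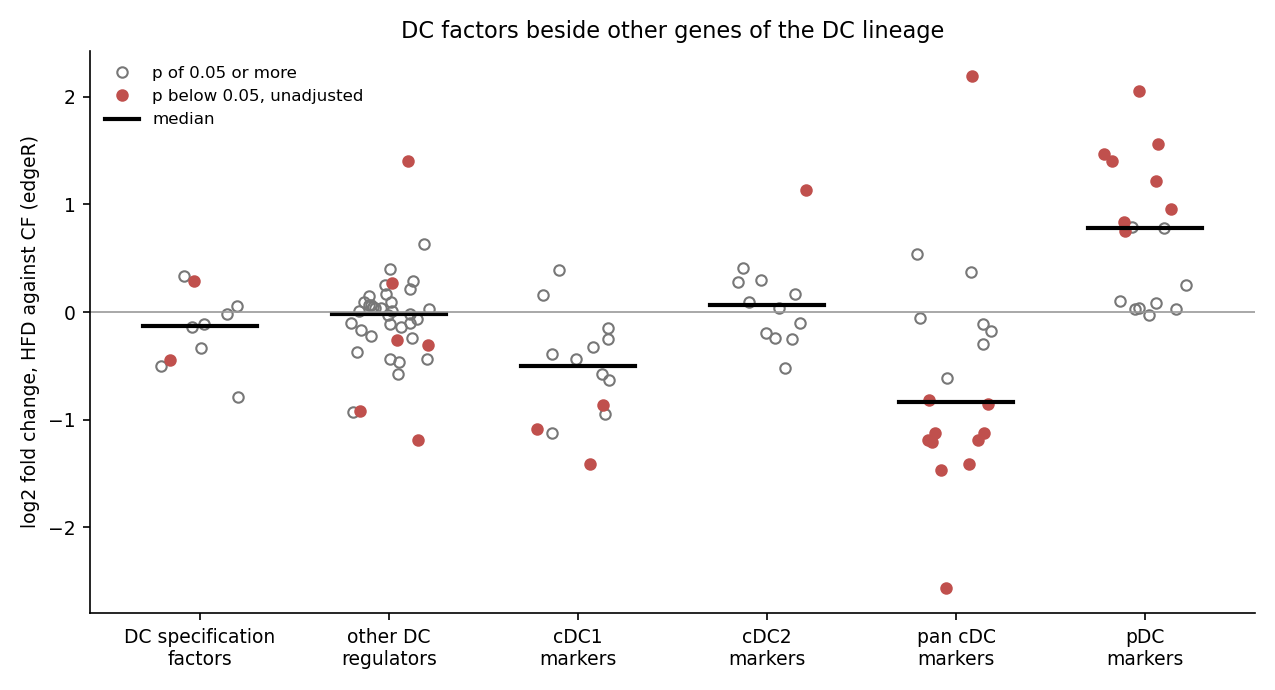
Log2 fold change of HFD against CF (vertical axis) of each tested gene, 1 point per gene, in the 10 DC specification factors and 5 other lists, filled where the unadjusted p of edgeR was below 0.05, with the median of each list as a bar. The medians are -0.13 for the factors, -0.83 for pan-cDC genes and 0.78 for pDC genes.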

How the data were processed

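RNA of sorted CDPs was sequenced in 8 libraries, 4 of HFD and 4 of CF. The authors deposited raw counts per gene, made with FastQC, cutadapt, HISAT2 and StringTie on GRCm38 and GENCODE, keeping uniquely mapped pairs. Versions, the GENCODE release and strandedness are not given in the sources used here, so Zeb2 and the antisense Zeb2os cannot be told apart with certainty. Columns were matched by library number. The study tested with Ballgown, whose transcript-level input was not used here.

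Of 16119 genes, 16067 were found in GENCODE vM21 (GRCm38), used for names and lengths. The test was run in edgeR 4.0.16 under R 4.3.3 (filterByExpr, TMM, robust quasi-likelihood fit with diet as the only term, Benjamini-Hochberg over 15837 genes, threshold 0.05). A prior count of 2 entered log2 CPM. Exact tests covered 70 draws of 4 of 8 libraries, or 40320 orders for a correlation. TMM factors ranged from 0.80 to 1.18.

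The rule for the factors uses their names and no measured value, but they and the lists were chosen with earlier results of these data known. Named were all factors, the 2 genes with the lowest p and the 2 most abundant of the DC lists, the 3 genes most like each factor, and genes overlapping a factor. Of other cell types only markers that bear on a result are given. Alternatives were RLE, library size alone, DESeq2 1.42.0, limma 3.58.1 (voom), all genes kept, at least 1 CPM in 4 libraries, protein-coding genes alone, a replicate block and each library left out, and, chosen after seeing the data, HFD replicate 1 and CF replicate 1 both left out. The fit was tested on simulated data. Figures were drawn with matplotlib 3.10.9.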

Additional observations from a re-analysis of the deposited data

Results flagged for a closer look

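For each factor and ratio, the 4 libraries of a diet were searched for 1 value far from the rest. This was found in 5 of 34 such searches, where about 1 in 20 would be found by chance. Zeb2 was highest in HFD replicate 2, with a log2 CPM of 8.10 where the other HFD libraries had 7.53 to 7.56. The same library was the lowest in the log2 ratio of Id2 to Zeb2, with -0.76 (0.24 to 0.45 in the others), and of Nfil3 to Zeb2, with -1.07 (-0.28 to -0.19). HFD replicate 1 was the highest in the log2 ratio of Bcl6 to Zeb2, with -0.53 (-2.04 to -1.80 in the others). CF replicate 1 was the highest in Id2, with a log2 CPM of 5.48 (5.03 to 5.08 in the other CF libraries). The ratios to Zeb2 share its counts, so those of HFD replicate 2 are not separate observations.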

How the results depend on the processing

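Under all 17 alternatives edgeR, DESeq2 or limma called 0 of the 10 factors, and Id2, Zbtb46, Batf3 and Relb stayed below 0 and Irf8 and Nfil3 above. Id2 ranged from -0.56 (without HFD replicate 4) to -0.24 (library size alone), with adjusted p from 0.238 to 0.927, and had an unadjusted p below 0.05 in 14 of 17. Irf8 ranged from 0.12 to 0.60, with adjusted p from 0.0943 to 0.999. Library size alone moved the median of all genes from 0.055 to 0.25 and turned Klf4 to 0.18, Bcl6 to 0.041 and Zeb2 to 0.097. With each library left out, Irf4 ranged from -0.10 to 0.35, below 0 without HFD replicate 1 (-0.058) or 2 and without CF replicate 1 (-0.033) or 4 (-0.076), and turned to -0.15 without HFD and CF replicate 1. Klf4 ranged from -0.21 to 0.14, above 0 without HFD replicate 1 (0.11) or 3 and without CF replicate 2 (0.052) or 3 (0.0023), and turned to 0.040 without HFD and CF replicate 1. Bcl6 turned to 0.031 without HFD replicate 3, and ranged from -0.54 to 0.031 with each library left out. The difference in Irf8 to Irf4 ranged from -0.095 (without HFD replicate 4) to 0.60 (without HFD replicate 1), and was -0.013 without HFD replicate 3 and -0.067 without CF replicate 2, and that in Bcl6 to Zeb2 ranged from -0.47 without HFD replicate 1 to 0.027 without HFD replicate 3. The causes were not tested.

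Over all genes, 67 were called lower and 0 higher. DESeq2 called 503 and 64, protein-coding genes alone 0 lower, library size alone 10 higher, and HFD and CF replicate 1 both left out 350 and 38. With each library left out the calls ranged from 0 to 166 lower and from 0 to 34 higher, with 166 lower without HFD replicate 1, 154 without CF replicate 4 and 0 or 1 without any other. With the replicate number as a block, edgeR called 0 genes lower (675 at an unadjusted p below 0.05) and 0 factors. Deviations of same-numbered libraries from their diet means correlated with r from -0.439 to -0.0779 across genes, so this measure gave no sign of pairing. Such deviations are centred within each diet and HFD replicate 1 stood apart, so that this measure cannot show whether libraries shared a batch.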
